A study of Mus musculus with 16 samples.

Results

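The 10 genes described here encode the MHC class I antigen presentation machinery and the immunoproteasome, and they were followed by genotype, tissue and time in neutrophils of mice with and without sepsis. They were chosen by name from the 49315 genes in the count files: H2-K1, H2-D1, B2m, Tap1, Tap2, Tapbp, Psmb8, Psmb9, Psmb10 and Nlrc5. RNA came from Ly6G+/CD11b+/CD45.2+ cells sorted from the blood or the lung of male mice aged 8 to 12 weeks. WT mice, whose strain is not given in the sources used here, were compared with αD KO mice for the integrin αD (CD11d, gene Itgad), obtained from a commercial breeder. Each genotype was sampled without surgery (0h) and 12 hours (12h) into sepsis caused by cecal ligation and puncture (CLP), an operation that leaks gut bacteria into the abdomen. The 8 groups held 3 count files each from 2 samples, and each file was taken as a library. Libraries 1a and 1b belong to sample 1 and library 2 to sample 2, and n would be 2 rather than 3 if both files of sample 1 stem from a single animal. Nothing in the labels says that libraries came from separate animals, so p-values measure the spread between these libraries.

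MHC class I molecules show peptides from inside the cell to CD8 T cells. The proteasome cuts proteins into peptides, the TAP transporter moves them into the endoplasmic reticulum, and tapasin helps to load them onto a heavy chain paired with β2-microglobulin. In cells exposed to interferon, the catalytic subunits of the standard proteasome are replaced in newly made particles by the immunosubunits, Psmb5 by Psmb8, Psmb6 by Psmb9 and Psmb7 by Psmb10. Nlrc5 is a transactivator that acts at class I promoters through factors bound to conserved boxes, among them the X2 box, read by CREB and ATF proteins, and the Y box, read by NF-Y.

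Psmb9, Tap1, Psmb8 and Tap2 lie side by side on chromosome 17 of GRCm38 within 34334 bases. Psmb9 (ENSMUSG00000096727, 34181988 to 34187764, minus strand) and Tap1 (ENSMUSG00000037321, 34187553 to 34197225, plus strand) are head to head and overlap by 212 bases. Psmb8 (ENSMUSG00000024338) spans 34197721 to 34201454 and Tap2 (ENSMUSG00000024339) spans 34203527 to 34216321. The same chromosome holds H2-K1 (ENSMUSG00000061232, 33996017 to 34000333), Tapbp (ENSMUSG00000024308, 33915899 to 33929288) and H2-D1 (ENSMUSG00000073411, 35262730 to 35267499). B2m (ENSMUSG00000060802) is on chromosome 2 at 122147686 to 122153083. Psmb10 (ENSMUSG00000031897, 105935735 to 105938444) and Nlrc5 (ENSMUSG00000074151, 94434356 to 94527272) are on chromosome 8.

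The promoters of the class I heavy chains and of B2m are shown because these genes share boxes that the neighbouring Psmb9 and Tap1 promoter does not hold in the same arrangement. The sequences are RefSeq windows on GRCm38.p6, matched by symbol for 8 of the 10 genes, and each gives the 200 bases before the annotated start, 5′ to 3′ on the strand of the gene. Capitals mark matches on either strand to 5 motifs, in which the pair TGACG then ATTGG stands for the X2 and Y boxes, 10 to 40 bases apart. The others are a pair of TTTC with 2 bases between them, the core bound by interferon regulatory factors (ISRE), TTCNNNGAA, the interferon-γ activated site (GAS), GGGCGG, the GC box, and the NF-κB consensus by its name.
H2-K1, chr17:34000334-34000533, minus strand: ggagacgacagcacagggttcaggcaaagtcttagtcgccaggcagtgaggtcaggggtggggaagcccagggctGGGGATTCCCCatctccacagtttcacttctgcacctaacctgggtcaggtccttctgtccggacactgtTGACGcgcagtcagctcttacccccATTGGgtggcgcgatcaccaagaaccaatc
H2-D1, chr17:35262894-35263093, plus strand: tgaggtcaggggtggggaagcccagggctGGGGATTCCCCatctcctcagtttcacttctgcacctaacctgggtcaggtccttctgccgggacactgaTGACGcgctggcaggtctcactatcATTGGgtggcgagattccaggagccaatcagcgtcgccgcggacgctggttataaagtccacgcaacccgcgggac
B2m, chr2:122147487-122147686, plus strand: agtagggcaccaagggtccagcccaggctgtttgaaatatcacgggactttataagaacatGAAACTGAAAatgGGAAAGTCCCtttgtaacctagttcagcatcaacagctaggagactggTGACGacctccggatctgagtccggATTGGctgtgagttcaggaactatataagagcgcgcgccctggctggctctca
Tap1, chr17:34187356-34187555, plus strand: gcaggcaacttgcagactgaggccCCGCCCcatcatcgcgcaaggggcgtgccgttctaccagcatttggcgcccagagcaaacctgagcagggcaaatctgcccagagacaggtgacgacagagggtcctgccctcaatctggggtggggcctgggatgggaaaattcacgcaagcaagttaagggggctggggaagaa

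The X2 and Y pair was found in H2-K1, H2-D1 and B2m, 3 of the 8 genes matched, with 20 bases between the boxes in each, and in 0.965% of all 32851 windows of 300 bases. In H2-K1 the pair ran from position -55 to -26 counted from the start, in H2-D1 from -101 to -72 and in B2m from -78 to -49. These 3 genes also held the NF-κB consensus, which 5.81% of all windows hold. In B2m the NF-κB match followed an ISRE match at -139 to -130, a motif present in 3.44% of all windows. H2-K1 and H2-D1 held no match to these exact letters, and variants of the motif were not searched, so such an element may still be present. The only match in the Tap1 stretch was the GC box, which is present in 35.7% of all windows. The 300-base windows of Tap1 and Psmb9 share 275 bases, so most of each window is the other read on the opposite strand. Psmb8 held a GAS match at -97 to -89 (8.30% of all windows). These are matches of letters, not sites shown to be bound.

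Total counts ran from 5753476 to 29984954 per library. Each library 1b had the lowest total of its group, 5753476 to 17976890 against at least 16565779 in the other 16 libraries, and counts in more genes than the others of its group, 29162 to 38844 against 17132 to 32666. Itgad, the targeted gene, was at 12.6 to 96.1 CPM in αD KO libraries and at 0.0522 to 4.08 CPM in WT libraries, so the targeted gene went against the labels at the level of the gene. Counts were made per gene, so they do not show which exons were read. WT and αD KO are therefore the labels of the libraries, and directions between genotypes rest on these labels. Each library was placed on an axis built from the 1340 genes called between WT lung 12 and 0 hours, with the WT lung 0h mean at 0 and the 12h mean at 1. Blood and WT lung libraries lay at -0.051 to 0.217 at 0h and at 0.699 to 1.19 at 12 hours. Of the 6 αD KO lung libraries, 3 went against their labels: the library labelled 0h, library 2 lay at 1.02, and those labelled 12h, libraries 1a and 2 lay at 0.095 and 0.181. Directions drawn from αD KO lung rest on these labels, and the members' log2 fold changes are also given without these 3 libraries. Neutrophil markers summed to at least 33640 CPM in every library. The highest sums of other lists were 8842 CPM for erythroid, 2000 CPM for dendritic cell, 1686 CPM for monocyte and macrophage, 1615 CPM for B cell, 830.0 CPM for lung epithelium, 732.7 CPM for platelet, 499.2 CPM for T and NK cell and 145.5 CPM for endothelium markers.

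All 10 genes had counts in every library, the lowest being 81 counts of Nlrc5. Levels between genes are given as RPKM, the TMM-scaled CPM per kilobase of exon. H2-D1, a class I heavy chain, was highest at a median of 2584 RPKM over the 24 libraries, followed by B2m at 1926 RPKM and H2-K1, the other heavy chain, at 219.6 RPKM. H2-D1 was above B2m in 23 of 24 libraries, and B2m was above H2-K1 in all 24. Tapbp stood at 128.1 RPKM. The proteolytic and transport genes were lower, with Psmb8 at 49.5, Tap2 at 36.7, Psmb9 at 23.95, Tap1 at 20.5 and Psmb10 at 9.97 RPKM, and Nlrc5 was lowest at 2.04 RPKM. Psmb8 and Tap2 changed order between libraries (Psmb8 higher in 17 of 24), as did Psmb9 and Tap1 (Psmb9 higher in 17 of 24). The order also depends on the length used. The exonic length of Psmb9 is 3659 bases and its longest coding transcript has 1352, against 5476 and 2953 for Tap1 and 3781 and 3442 for Tap2. H2-K1 made up 4.93% to 10.6% of the sum of both heavy chains per length in every library. The sharing of reads among class I genes bears on this value: of the windows of 100 bases in the longest transcript, none of H2-K1 and 4.64% of H2-D1 occurred in transcripts of other genes, H2-Q1 first among them. Other members also shared windows, with 14.0% of the Tapbp windows in the antisense Gm19412 and in AC122861.4, 9.02% of the Psmb9 windows in Tap1, 5.35% of the Tap2 windows in Gm15821 and Gm20496 and 3.96% of the Tap1 windows in Psmb9. The strand setting of the counting is not given in the sources used here, so these values of overlapping genes are uncertain.

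**Figure D1:**
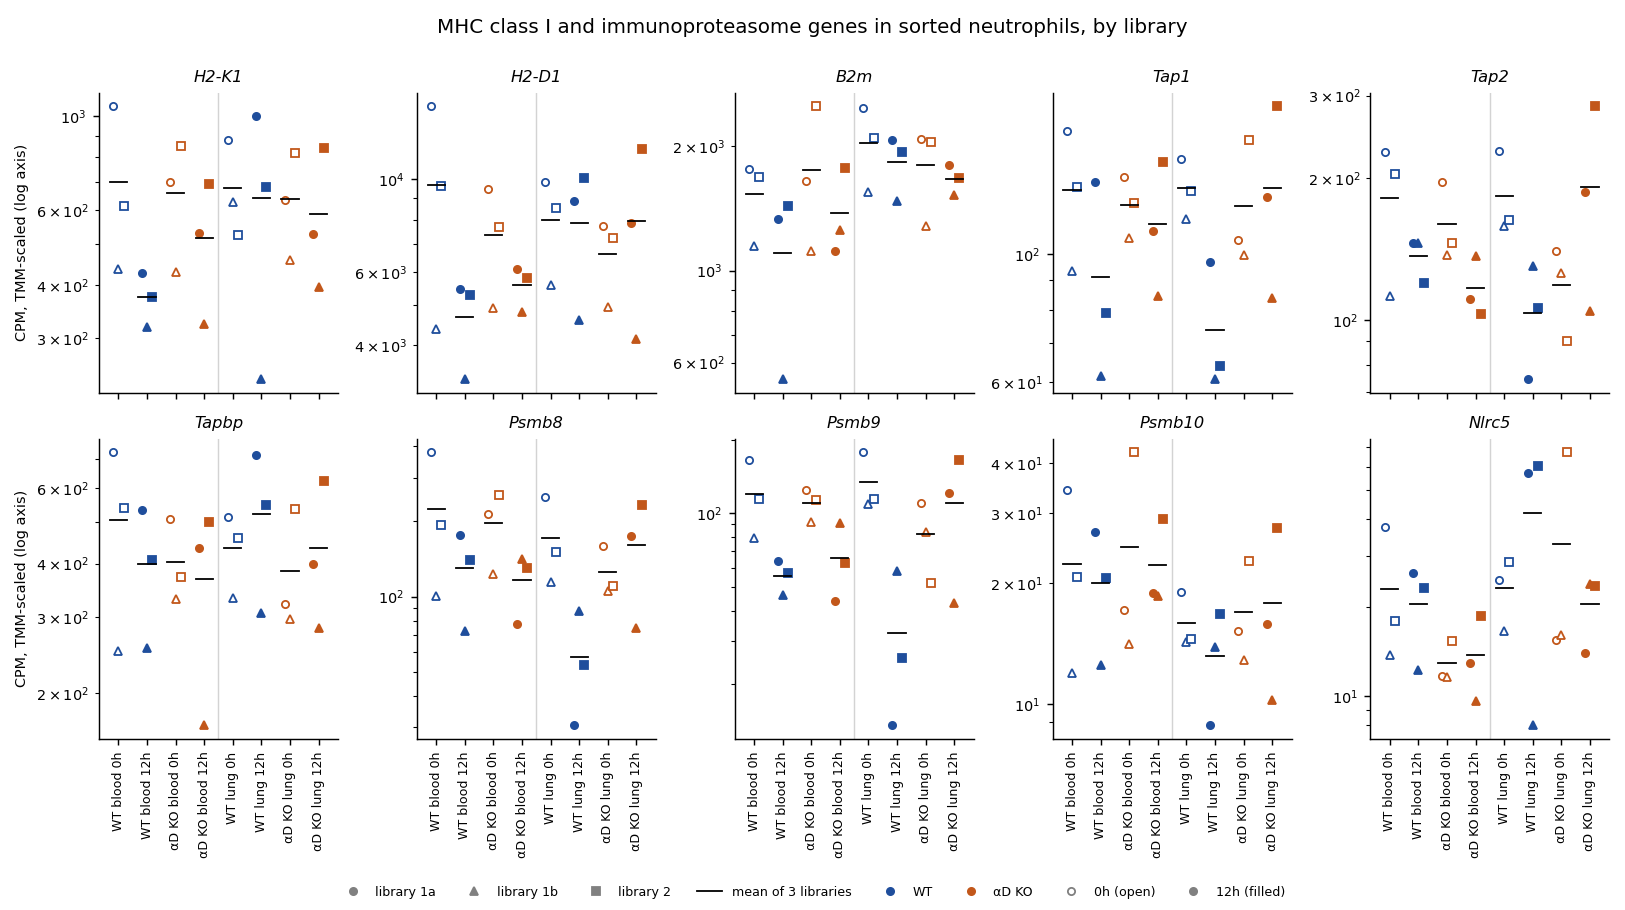
TMM-scaled CPM (log axis) of the 10 genes in each of the 24 libraries, by group. Symbols stand for libraries 1a, 1b and 2, open for 0h and filled for 12h, and the bar is the mean of 3. In WT blood all 10 means were lower at 12h, and in WT lung the 3 libraries at 12h lay below the 3 at 0h for Psmb8, Psmb9, Tap1 and Tap2.

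To examine whether the machinery changed with sepsis, 12h was compared with 0h in each tissue and genotype by edgeR's quasi-likelihood F test. Calls required a log2 fold change beyond 1 in either direction, with p under 0.05 after Benjamini-Hochberg adjustment. No member was called in any of the 4 time comparisons. In all, 13.5% of the genes tested were called in WT blood, 9.02% in WT lung, 8.75% in αD KO blood and 0% in αD KO lung. At an unadjusted p under 0.05 the members numbered 2 in WT blood, 3 in WT lung, 2 in αD KO blood and 0 in αD KO lung, all lower, against 13.7%, 12.1% and 15.8% of all genes that were lower at that level, and 0.401% in either direction in αD KO lung. The DESeq2 Wald test called Psmb9 in WT blood, and Psmb8 and Psmb9 in WT lung, all lower, where 9.38% and 8.49% of all genes were called lower. It called no member in αD KO blood (16.5% of all genes) or αD KO lung (0%).

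Psmb9, the immunosubunit that replaces Psmb6, was at 165, 79.3 and 115 CPM in WT blood at 0h (libraries 1a, 1b and 2) and at 63.6, 46.1 and 57.1 CPM at 12 hours. Every 12h library was below every 0h library, and the log2 fold change was -1.16 (SE 0.34, edgeR adjusted p = 0.0600). With the library number as a block, which the check of pairing called for in this comparison, Psmb9 was called (log2 fold change -1.10, SE 0.28, edgeR adjusted p = 0.0319), and 18.4% of all genes were called in that fit. In αD KO blood Psmb9 was at 124, 91.9 and 114 CPM at 0h and at 44.0, 91.2 and 62.5 CPM at 12 hours. The groups again did not overlap, though library 1b at 12h lay within 1 CPM of library 1b at 0h. In WT lung Psmb9 was at 178, 110 and 114 CPM at 0h and at 13.6, 58.0 and 25.6 CPM at 12 hours. This was the largest difference among the members, with a log2 fold change of -2.03 (SE 0.56, edgeR adjusted p = 0.0605). Library 1b at 12h was the highest of its group, and without it the gene was called at -2.92 (SE 0.38, edgeR adjusted p = 0.00185). In that refit 25.3% of all genes were called.

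Psmb8, the immunosubunit that replaces Psmb5, went the same way in WT lung. It was at 250, 114 and 151 CPM at 0h and at 30.5, 87.8 and 53.2 CPM at 12 hours, with no overlap. The log2 fold change was -1.58 (SE 0.50, edgeR adjusted p = 0.0866), and -2.18 (SE 0.41, edgeR adjusted p = 0.00769) without library 1b at 12h. With each library left out in turn it ran from -2.18 to -1.19, at edgeR adjusted p up to 0.490. In blood the groups overlapped for Psmb8, at 379, 100 and 193 CPM against 176, 72.8 and 140 CPM in WT and at 215, 123 and 255 CPM against 77.6, 141 and 130 CPM in αD KO. Psmb10, the immunosubunit that replaces Psmb7, overlapped between 0h and 12h in every tissue and genotype, within 8.86 to 42.5 CPM over all 24 libraries.

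Tap1 and Tap2, the paired subunits of the peptide transporter, differed in WT lung in the same direction as their chromosomal neighbours. Tap1 was at 147, 115 and 129 CPM at 0h and at 97.0, 60.6 and 63.8 CPM at 12 hours. Tap2 was at 229, 158 and 163 CPM at 0h and at 74.7, 130 and 106 CPM at 12 hours. Neither overlapped, and neither was called (log2 fold changes -0.82 and -0.82, edgeR adjusted p = 0.146 and 0.190). Without library 1b at 12h, Tap2 was called at -1.17 (SE 0.29, edgeR adjusted p = 0.0209). With each library left out in turn, Tap2 ran from -1.17 to -0.57, at edgeR adjusted p up to 0.887. The members without overlap in WT lung were thus these 4 neighbours, where 17.4% of all genes were lower without overlap. In αD KO blood Tap2 was at 197, 138 and 146 CPM at 0h and at 111, 136 and 103 CPM at 12 hours, also without overlap, a gap of about 1 CPM between libraries 1b. Tapbp, which encodes tapasin, overlapped in all 4 comparisons, with group means of 367.9 to 522.3 CPM.

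The heavy chains and their light chain were called in neither tissue. H2-K1 in WT blood was at 1054, 437 and 614 CPM at 0h and at 429, 320 and 375 CPM at 12 hours, with no overlap (log2 fold change -0.96, SE 0.41, edgeR adjusted p = 0.168). H2-D1 in WT blood was at 14950, 4385 and 9656 CPM at 0h and at 5459, 3315 and 5265 CPM at 12 hours, where library 1b at 0h lay within the 12h range. Without that library both were called, H2-K1 at -1.23 (SE 0.30, edgeR adjusted p = 0.0290) and H2-D1 at -1.47 (SE 0.32, edgeR adjusted p = 0.0208), in a refit that called 18.4% of all genes. With each library left out in turn, H2-K1 ran from -1.23 to -0.49 and H2-D1 from -1.47 to -0.64. Their edgeR adjusted p ran up to 0.858 and 0.903. Over time in αD KO blood, H2-K1 (430.4 to 848.9 CPM at 0h, 324.0 to 692.0 CPM at 12 hours), H2-D1 (4924 to 9479 and 4817 to 6098 CPM), B2m (1118 to 2489 and 1115 to 1764 CPM) and Nlrc5 (11.6 to 15.4 and 9.62 to 18.7 CPM) all overlapped between times. In WT lung H2-K1 was at 881, 629 and 526 CPM at 0h and at 1000, 241 and 680 CPM at 12 hours, and H2-D1 at 9868, 5573 and 8540 CPM and at 8862, 4585 and 10090 CPM. Both overlapped widely, and the 95% intervals of the log2 fold change (-1.32 to 1.10 and -1.19 to 1.08) took in changes in either direction. B2m, the light chain, was at 1755, 1147 and 1682 CPM in WT blood at 0h and at 1335, 547 and 1431 CPM at 12 hours, and at 1474 to 2471 CPM in WT lung over both times. Nlrc5 stood apart in WT lung. It was at 24.8, 16.6 and 28.6 CPM at 0h and at 57.4, 7.97 and 60.6 CPM at 12 hours, so that libraries 1a and 2 were above and library 1b below the 0h range. Without library 1b at 12h it was called higher, with a log2 fold change of 1.19 (SE 0.25, edgeR adjusted p = 0.0123). With each library left out in turn, the log2 fold change of Nlrc5 ran from 0.31 to 1.19.

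**Figure D2:**
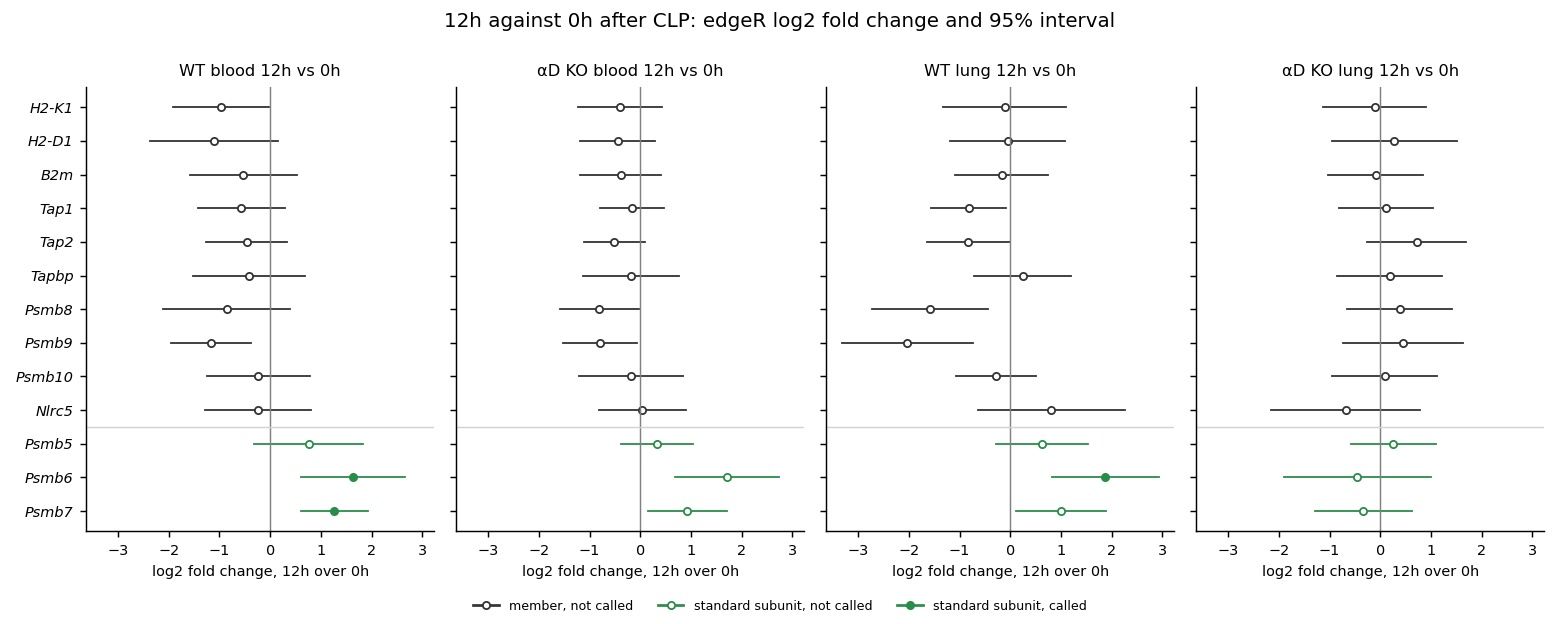
edgeR log2 fold change of 12h over 0h with its 95% interval for the 10 members (black) and the 3 standard subunits (green) in 4 comparisons, filled where called. No member is filled, while Psmb6 is filled in WT blood and WT lung and Psmb7 in WT blood, all to the right of 0.

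Over the 10 members the count below 0 was 10 in WT blood (55.4% of all genes tested), 9 in αD KO blood (55.3%), 8 in WT lung (48.9%) and 3 in αD KO lung (54.0%). The median log2 fold change was -0.55 in WT blood (all genes -0.15), -0.39 in αD KO blood (-0.14), -0.23 in WT lung (0.03) and 0.15 in αD KO lung (-0.05). Without overlap and lower were 2 members in each blood comparison, against 16.4% and 17.7% of all genes. These counts depend on the scaling. The members' share of all counts was 1.01% to 1.85% in WT blood at 0h and 0.489% to 0.676% at 12 hours, and it was 1.14% to 1.48% and 0.666% to 0.885% in WT lung. With library totals in place of TMM factors, the median of all genes moved to -0.60, -0.57 and -0.52 in WT blood, WT lung and αD KO blood. Among all genes the calls were 1134 higher and 841 lower in WT blood with TMM, and 685 higher and 1471 lower with totals. In WT lung they were 778 higher and 562 lower with TMM, and 409 and 1459 with totals, and in αD KO blood 531 and 707, and 304 and 1281. The members' medians moved with the scaling, to -0.97, -0.81 and -0.75. With totals the members called, all lower, were H2-K1 (-1.31), H2-D1 (-1.42) and Psmb9 (-1.53) in WT blood, Tap1 (-1.42) in WT lung and Psmb9 (-1.17) in αD KO blood. The difference between the members' median and that of all genes was of like size under both scalings.

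A ratio of 2 genes within a library does not depend on the scaling, so each immunosubunit was set against the standard subunit that it replaces. The log2 fold changes of all 3 standard subunits were above 0 in WT blood, WT lung and αD KO blood under TMM. Psmb6 was at 57.8, 21.97 and 51.6 CPM in WT blood at 0h and at 199, 102 and 126 CPM at 12 hours, and it was called higher (log2 fold change 1.63, SE 0.44, edgeR adjusted p = 0.0470). In WT lung Psmb6 was at 40.3, 24.4 and 36.5 CPM at 0h and at 166, 53.7 and 158 CPM at 12 hours, and it was called higher (1.87, SE 0.46, edgeR adjusted p = 0.0421). In αD KO blood its log2 fold change of 1.72 missed the threshold (SE 0.45, edgeR adjusted p = 0.0508). Psmb7 was called higher in WT blood (1.27, SE 0.29, edgeR adjusted p = 0.0275). With library totals Psmb6 was still called in WT blood (1.28) and WT lung (1.24), and Psmb7 was not called (0.88). Psmb5 was called in none of the 4, at 0.76 in WT blood and 0.34 in αD KO blood, where it turned to -0.03 with library totals.

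The share of Psmb9 in the sum of Psmb9 and Psmb6 per exonic length was 59.4%, 64.9% and 53.2% in WT blood at 0h (libraries 1a, 1b and 2) and 14.05%, 18.7% and 18.8% at 12 hours. In αD KO blood it was 58.4%, 68.4% and 43.2% at 0h and 10.2%, 30.3% and 15.3% at 12 hours. In WT lung it was 69.3%, 69.7% and 61.6% at 0h and 4.03%, 35.6% and 7.63% at 12 hours. In these 3 settings no 12h library reached a 0h library. The level of the share depends on the exonic lengths used, while the difference between times on the log2 ratio scale does not. In blood the log2 ratio of Psmb9 to Psmb6 was lower at 12h by 2.82 in WT and by 2.67 in αD KO.

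The shares of the other immunosubunits were also lower at 12h. Psmb8 made up 50.7% to 64.1% of Psmb8 and Psmb5 in WT blood at 0h and 30.9% to 32.2% at 12 hours, and 54.8% to 55.1% and 30.2% to 40.03% in αD KO blood. In WT lung it made up 47.8% to 64.0% at 0h and 16.9% to 28.7% at 12 hours. Psmb10 made up 63.1% to 74.8% of Psmb10 and Psmb7 in WT blood at 0h and 38.0% to 48.4% at 12 hours, and 60.1% to 71.8% and 42.1% to 52.8% in αD KO blood. In WT lung the Psmb10 groups nearly touched, 54.24% being the lowest at 0h and 54.21% the highest at 12 hours. All 3 log2 ratios fell in blood over both genotypes, by 1.36 for Psmb8 to Psmb5, 2.75 for Psmb9 to Psmb6 and 1.22 for Psmb10 to Psmb7 (exact permutation of libraries within genotype, two-sided, p = 0.005 and adjusted p = 0.005 over the 3 ratios for each, the smallest p that 3 against 3 in 2 genotypes allows). The ratio was lower in all 6 blood libraries at 12h than in all libraries at 0h of the same genotype. In WT lung alone the 3 ratios were lower by 2.27, 4.03 and 1.24 (exact permutation p = 0.1 for each, the smallest p of that design). The test was chosen after the values were seen. With the 2 files of sample 1 summed, the blood differences were -1.31, -2.59 and -1.31 and the exact permutation p was 0.0556 for each, the smallest that 2 against 2 in 2 genotypes allows.

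**Figure D3:**
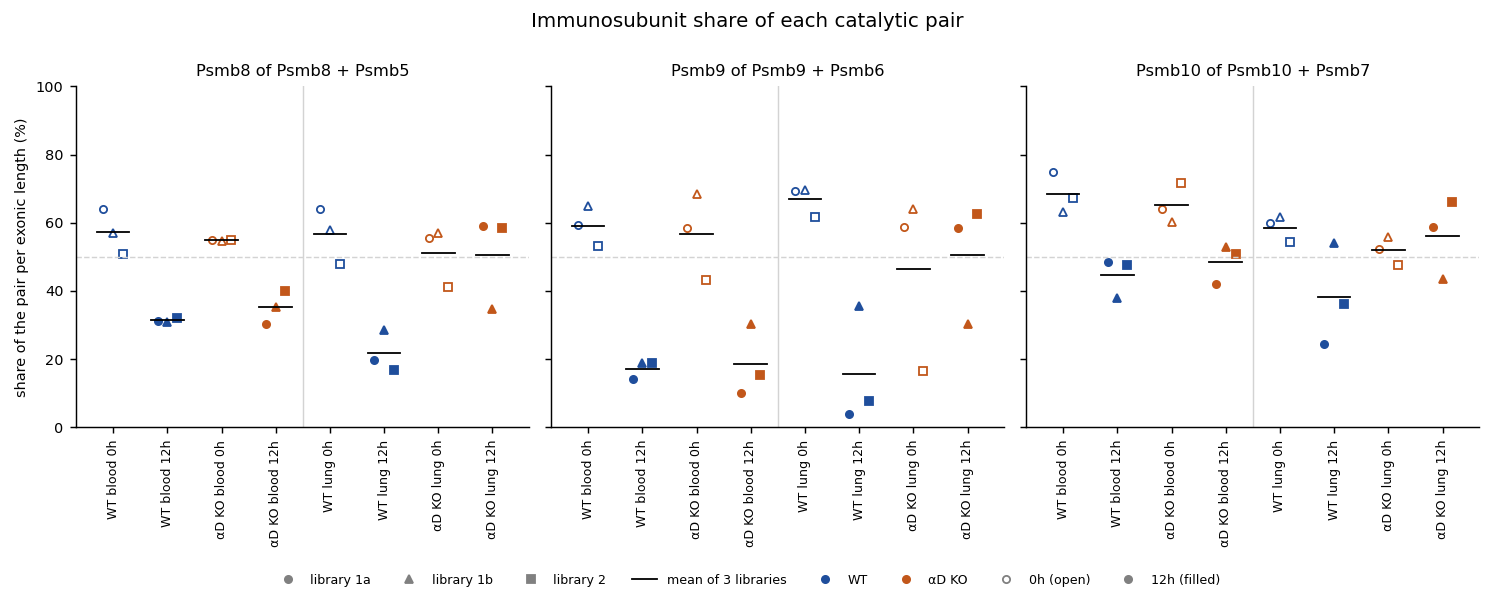
Share (%) of each immunosubunit in the sum with its standard counterpart, per exonic length, in the 24 libraries (symbols as for the plot of CPM by library; bars are means of 3). In blood of both genotypes and in WT lung the 12h libraries lie below the 0h libraries for all 3 pairs, while the αD KO lung groups overlap.

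In αD KO lung the Psmb9 share was 58.8%, 64.1% and 16.5% at 0h and 58.6%, 30.3% and 62.5% at 12 hours. The low value at 0h is library 2 and the high values at 12h are libraries 1a and 2, the 3 libraries that went against their labels on the axis. Psmb9 itself was at 111, 84.1 and 52.0 CPM at 0h and at 122, 43.0 and 165 CPM at 12 hours (log2 fold change 0.44, SE 0.51, edgeR adjusted p = 1.00). Without the 3 libraries, with 2 libraries left at 0h and 1 at 12h, 9 of the 10 members were below 0 with a median of -0.53. The 3 were picked by their place on the axis, so leaving them out moves genes that follow the axis toward the WT lung direction. The share of all genes below 0 in that fit is not given here, so no conclusion is drawn from this count. Psmb9 was then at a log2 fold change of -1.32 (SE 0.73) and Psmb8 at -0.97 (SE 0.72) in place of 0.38. H2-K1 (395.7 to 839.4 CPM), H2-D1 (4146 to 11840 CPM), B2m (1280 to 2081 CPM), Tap1 (83.9 to 181 CPM), Tap2 (89.9 to 285 CPM) and Nlrc5 (14.0 to 67.3 CPM) overlapped between 0h and 12h in αD KO lung. The lone 12h library is assumed to vary like the others in that fit.

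**Figure D4:**
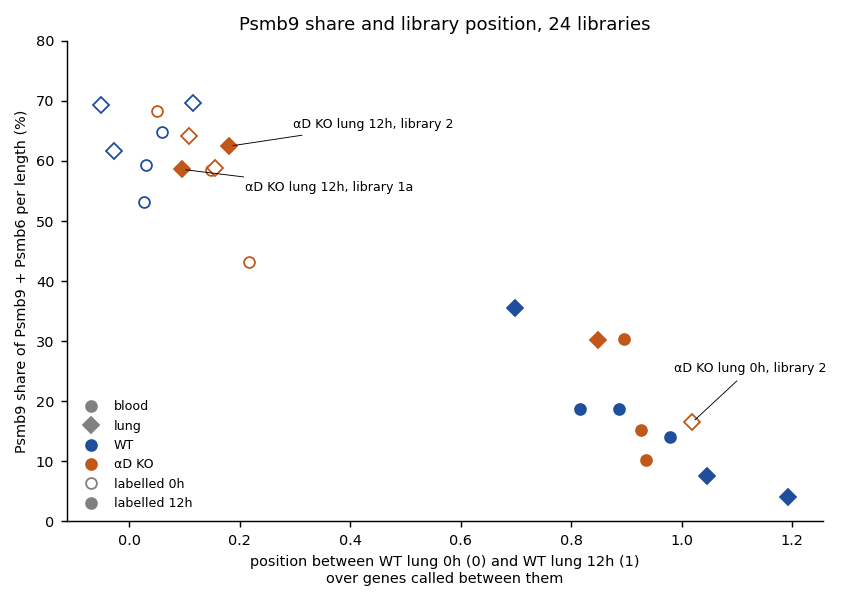
Psmb9 share (%) of Psmb9 and Psmb6 against the position of each of the 24 libraries on the axis from WT lung 0h (0) to WT lung 12h (1). Libraries near 0 hold shares of 43.2% to 69.7% and those near 1 hold shares of 4.03% to 35.6%, and the 3 named αD KO lung libraries sit with the opposite time.

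Between genotypes no member differed detectably in blood. At 0h and at 12h no member was called between αD KO and WT, where 0.0115% and 0% of all genes were called, and no member was without overlap (3.35% and 9.76% of all genes). Psmb9 in blood at 12h was at 46.1 to 63.6 CPM in WT and at 44.0 to 91.2 CPM in αD KO, with a 95% interval of the log2 fold change of -0.40 to 1.05. That interval takes in a difference of 1 on the log2 scale. In the test of the genotype by time interaction in blood all 10 members had positive values, 0.10 to 0.79, and none was called (edgeR adjusted p = 1.00 for each), where 53.8% of all genes were positive and 0% were called.

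In lung at 12h no member was called between αD KO and WT (0% of all genes). Psmb9 (1.90, SE 0.68), Psmb8 (1.63, SE 0.58), Tap2 (1.02, SE 0.48) and Tap1 (0.93, SE 0.44) had the highest log2 fold changes among the members, with edgeR adjusted p from 0.598 to 0.610. For all 4, library 1b of αD KO lay within the WT range. With libraries 1a and 2 alone, Psmb9 (2.92), Psmb8 (2.34) and Tap2 (1.44) were called higher and Nlrc5 (-1.60) lower, where 30.1% of all genes were called, and both αD KO libraries in that fit went against their labels on the axis. The Psmb9 value was 0.42 (SE 0.81) and that of Psmb8 0.39 (SE 0.67) without the libraries that went against their labels, with 1 αD KO library left. Tap1 was then at 0.15 and Tap2 at -0.0033, and 7 of the 10 members were below 0 with a median of -0.34. The share of all genes below 0 in that fit is not given here, so a shift of all genes cannot be told from a shift of the members. The genotype by time interaction in lung was likewise highest for Psmb9 (2.63, SE 0.83), Psmb8 (2.10, SE 0.73) and Tap2 (1.64, SE 0.59), each at edgeR adjusted p = 0.410. Without those libraries the values were 0.82, 0.72 and 0.44. At an unadjusted p under 0.05 these 3 members stood among 10.5% of all genes. In lung at 0h Tap2 was lower in αD KO without overlap, at 140, 126 and 89.9 CPM against 229, 158 and 163 CPM in WT, and no member was called (0% of all genes, with 5.39% lower without overlap). The lowest of these αD KO values is library 2, and the log2 fold change of Tap2 was -0.51 without it in place of -0.64. Without library 2 all 10 members were below 0 with a median of -0.40, and the share of all genes below 0 in that fit is not given here.

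Lung was also compared with blood within each genotype and time. At 0h no member was called between the tissues in WT or αD KO (0% of all genes in both). Nlrc5 was higher without overlap in αD KO lung at 0h, at 15.5, 16.1 and 67.3 CPM against 11.7, 11.6 and 15.4 CPM in blood (3.61% of all genes higher without overlap), and the highest value was that of the library labelled 0h, library 2. Without it the log2 fold change went from 1.35 to 0.36. At 12h no member was called in WT (0.0442% of all genes) or αD KO (0.0548%). In αD KO at 12h, Psmb9 went from 0.72 to -0.94 and Tap2 from 0.71 to -0.49 without the libraries against their labels, with 1 lung library left. In that fit 9 of the 10 members were below 0 with a median of -0.76, and the share of all genes below 0 is not given here. B2m was higher in WT lung than in WT blood at 12h without overlap, at 2067, 1474 and 1932 CPM against 1335, 547 and 1431 CPM, where 8.57% of all genes were higher without overlap (log2 fold change 0.75, SE 0.42, edgeR adjusted p = 0.372). Psmb8 pointed the other way, with a log2 fold change of -1.10 (SE 0.50, edgeR adjusted p = 0.295). Endothelium markers summed to 69.9 to 99.7 CPM in WT lung and 13.3 to 18.1 CPM in WT blood at 12h (8 of 8 tested higher, 1 called), and lung epithelium markers to 17.96 to 397.7 CPM and 1.15 to 4.42 CPM (5 of 5 tested higher, 0 called). The part of these cells in the members' values was not tested. Without WT lung 12h library 1b, 4 members were called in that comparison, Psmb8 and Psmb9 lower and H2-K1 and Nlrc5 higher in lung, where 20.2% of all genes were called. The tissue by time interaction in WT was between -1.06 (Psmb9) and 0.95 (Nlrc5), with no member and 0% of all genes called.

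The rest of the proteasome was examined by lists chosen by function. Of 11 other 20S subunits, all 11 had positive log2 fold changes in WT blood and 3 were called higher, Psma4 (1.08), Psma6 (1.75) and Psmb4 (1.38). Among all genes tested there, 55.4% were below 0 and 1134 of 14625 were called higher. In αD KO blood 2 of 11 were called higher, Psma6 (2.00) and Psmb4 (1.33), and in WT lung the same 2, Psma6 (1.54) and Psmb4 (1.05). Among all genes 531 of 14156 and 778 of 14859 were called higher in these settings. The list's median was 0.97 in WT blood (all genes -0.15), 0.78 in αD KO blood (-0.14) and 0.56 in WT lung (0.03). With library totals 9, 9 and 6 of the 11 were positive and 1, 1 and 0 were called. There 69.8%, 69.5% and 70.9% of all genes were below 0. Of 9 activators and assembly factors, Pomp, the chaperone that matures new 20S particles, was called higher in WT blood (1.33, SE 0.32) and WT lung (1.60, SE 0.29), and in neither with library totals (0.93 and 1.06). Psme2, a subunit of the PA28 activator induced by interferon-γ, was called higher in αD KO blood (1.51, SE 0.33), though not with library totals (1.14).

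Among 12 genes of peptide loading and trimming, 2 were called higher in WT blood, where 13.5% of all genes were called, 1134 of 14625 of them higher. These were Npepps, a cytosolic aminopeptidase (2.24, SE 0.30), and Pdia3, the disulfide isomerase of the loading complex also known as ERp57 (2.17, SE 0.56). Npepps was the only one called in WT lung (2.21, SE 0.44) and in αD KO blood (2.04, SE 0.31). Among all genes tested, 778 of 14859 and 531 of 14156 were called higher there. Of 15 other class I heavy chains, 13 were tested in blood and 12 in WT lung. H2-Q10 was called lower in WT blood (-3.11, SE 0.54) and in αD KO blood (-2.64, SE 0.32). Among all genes tested, 841 of 14625 and 707 of 14156 were called lower there. With library totals H2-Q1 (-1.29) and H2-T23 (-1.05) were also called lower in WT blood. H2-Q10 in WT blood was at 1577, 694 and 1411 CPM at 0h and at 93.3, 115 and 234 CPM at 12 hours. H2-T24 was also called lower in αD KO blood (-1.99, SE 0.50), and edgeR called no gene of the list in WT lung. There H2-Q10 was at 1522, 711 and 1312 CPM at 0h and at 292, 119 and 654 CPM at 12 hours, without overlap (-1.78, edgeR adjusted p = 0.113). DESeq2 called 3 of the list lower in WT lung, and with library totals edgeR called H2-Q10 lower (-2.40). In αD KO lung none of the genes of these lists was called.

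With TMM few of the factors known to drive class I and immunoproteasome genes were called, 1 of 17 in each of WT blood, WT lung and αD KO blood. With library totals 4 of 17 were called lower in each, where 1471 of 14625, 1459 of 14859 and 1281 of 14156 genes were called lower. The DESeq2 Wald test called 3, 2 and 3 of them lower. The calls named next are those of edgeR with TMM. Of 17 factors, Irf1, an interferon regulatory factor, was called lower in WT blood (-1.78, SE 0.34), at 744, 423 and 616 CPM at 0h and 192, 171 and 177 CPM at 12 hours. In WT lung Irf1 was at 545 to 650 CPM at 0h and at 603, 195 and 943 CPM at 12 hours. Ciita, the class II transactivator, was called lower in αD KO blood (-4.15, SE 0.91). Of 11 genes of interferon signalling, the ligands Ifng and Ifnb1 were removed by the filter on low counts in all 4 time comparisons. The other 9, which are 4 receptor chains, 3 kinases (Jak1, Jak2 and Tyk2) and 2 inhibitors (Socs1 and Socs3), were called in none with TMM. With library totals Jak1 was called lower in WT blood (-1.27), WT lung (-1.15) and αD KO blood (-1.08).

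Markers of other cell types moved with time as well. In blood of both genotypes and WT lung the 10 B cell markers summed to 345.1 to 1615 CPM at 0h and to 31.1 to 248.8 CPM at 12 hours, with 1, 4 and 5 of 10 called lower in WT blood, αD KO blood and WT lung. Ighm was the largest part of these sums, at 1170, 304 and 603 CPM in WT blood at 0h and 31.1, 33.3 and 142 CPM at 12 hours. Of the 10 markers, 3 had positive log2 fold changes in WT blood, and 0 did in αD KO blood and WT lung. In αD KO lung the sum was 453.1, 340.4 and 50.1 CPM at 0h and 519.9, 76.1 and 509.3 CPM at 12 hours, so it was low in the same libraries as the Psmb9 share. Monocyte and macrophage markers had 3 of 9, 5 of 10 and 3 of 9 called lower in WT blood, αD KO blood and WT lung, and 1 of 9 called higher in each WT tissue. Platelet markers had 3 and 1 of 6 called lower in WT and αD KO blood, and T and NK cell markers 2 of 8 in αD KO blood. Library 2 of αD KO blood at 0h stood apart, with 499.2 CPM of T and NK cell and 2000 CPM of dendritic cell markers against at most 32.5 and 272.8 CPM in libraries 1a and 1b. Dendritic cell markers, among them class II genes, had 3 of 10 called lower in each blood comparison and 0 of 9 in WT lung. Neutrophil markers summed to 33640 to 64200 CPM at 0h and to 101200 to 265300 CPM at 12 hours in the same 3 settings, with 6, 4 and 4 of 10 called higher and Csf3r called lower in each. Among all genes tested, 1134 of 14625 were called higher in WT blood, 531 of 14156 in αD KO blood and 778 of 14859 in WT lung. Those called lower were 841, 707 and 562. No B cell marker was at 0 in a whole group. Whether these cells contributed to the members' differences was not tested, and in sorted bulk samples a smaller share of a cell type and less RNA per cell cannot be told apart.

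Across the 24 libraries the members were compared in pairs by Pearson's r of log2 CPM. Psmb8 and Psmb9 went together most closely (r = 0.91), and Tap2 followed Psmb9 (0.85) and Psmb8 (0.80). Other close pairs were H2-K1 and H2-D1 (0.82), H2-D1 and Tapbp (0.79) and H2-K1 and Tapbp (0.75), and Psmb8 and Psmb10 stood at 0.71. Tap1 went with members of both kinds, at 0.70 with H2-K1 and 0.67 with Psmb8, and B2m stood at 0.70 with H2-D1. Between the former 3 genes and the latter 3, r ran from -0.04 (Psmb9 with Tapbp) to 0.49 (Tap2 with H2-D1). Nlrc5 was at 0.68 with Tapbp and at -0.38 with Psmb9. Psmb9 and Tap1, which overlap, stood at 0.58. The 24 libraries share groups, depth and the difference of libraries 1b, so these values are a description. By the same measure, the 5 genes most like the members' mean standardised level among 6596 genes of at least 10 CPM were Slc25a5 (r = 0.89), Ddx41 (0.88), Mthfs (0.87), Wdr45 (0.87) and Cog4 (0.86).

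**Figure D5:**
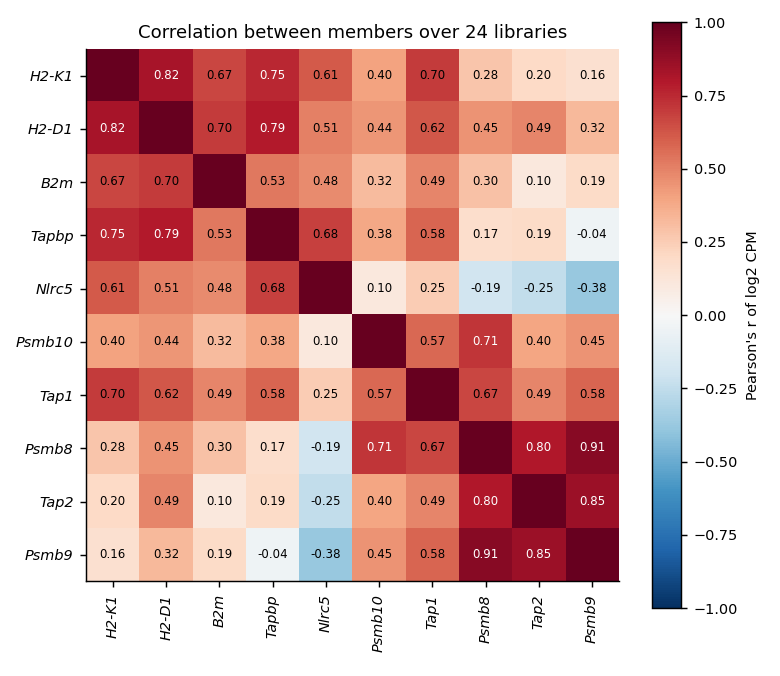
Pearson's r of log2 CPM between each pair of the 10 members over the 24 libraries, on a colour scale from -1 to 1. The 3 pairs of Psmb8, Psmb9 and Tap2 have r from 0.80 to 0.91, and those of H2-K1, H2-D1 and Tapbp have r from 0.75 to 0.82.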

How the data were processed

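The authors deposited raw counts of uniquely mapped reads per gene, 24 files of 16 samples. Per the submitters' notes reads were trimmed with Trimmomatic 0.36 and aligned with STAR 2.5.2b to GRCm38 (mm10). RNA was amplified with SMART-Seq v4, and the counter, strand setting and annotation release are not given in the sources used here. Genes were tested with edgeR 4.0.16 (R 4.3.3, limma 3.58.1) by the quasi-likelihood F test, with TMM factors, filterByExpr and Benjamini-Hochberg adjustment over all genes, on the groups compared. Calls required p under 0.05 after adjustment and a log2 fold change beyond 1 either way (for interactions the adjusted p alone). DESeq2 1.42.0 was an alternative. CPM used TMM factors over all 24 libraries, and RPKM divided CPM by exonic kilobases. Tables were handled in Python 3.11.15 with pandas 2.3.3 and numpy 2.4.6, and the fits were tested on simulated data. Total counts of 5753476 to 29984954 limit the precision, and counting error is the only error they describe.

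The rule for named genes covered the 10 members in every comparison, given by values per library, ranges or counts, and up to 4 genes of each pathway list that were called or are direct counterparts. The members and lists were chosen with earlier results of these data known. The count files 1a and 1b were kept apart, since chi-square over its degrees of freedom was 63.5 to 328.5 between them. That value is set against counting error only, so it cannot tell separate animals from separate preparations of a single animal. Library numbers were taken as pairs where same-numbered libraries correlated over 0.1 in their deviations for every number. This held in 6 of 12 comparisons, with r of 0.458, 0.589 and 0.118 in WT blood 12h against 0h. Alternatives were other scalings, filters, groups in the fit, summed files, libraries 1a and 2 alone, the block and each library left out. Scaling by library totals and the ratio test were chosen after seeing the data. 1 gene of the list of transcription factors is not reported here.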

Additional observations from a re-analysis of the deposited data

How the results depend on the processing

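By edgeR 0 of 10 members were called in each of 15 comparisons, and 213 of 235 alternative counts stayed at 0. Percentages in parentheses are the share of all genes called in the same fit. In WT blood 12h against 0h the count was 1 with RLE (14.9%), with the DESeq2 Wald test and with the replicate block (18.4%), 2 with files summed (15.9%), 3 with libraries 1a and 2 alone (23.1%) and 3 with library totals (14.7%), and 0 to 3 with each library left out (3 without WT blood 0h library 1b, 18.4%). In WT lung it was 2 with no filter (3.15%), with DESeq2 and with files summed (12.3%), 1 with all 8 groups (1.65%) and with library totals (12.6%), 4 with libraries 1a and 2 alone (37.2%), and 0 to 4 with each library left out (4 without 12h library 1b, 25.3%). In αD KO blood it was 1 with libraries 1a and 2 alone (11%) and with library totals (11.2%). Libraries 1a and 2 alone gave 4 for αD KO against WT in lung at 12h (30.1%), 3 for genotype by time in lung (13.2%), and 4 and 2 for lung against blood at 12h in WT (28.2%) and αD KO (34.3%). For WT it was 1 with files summed (4.47%) and 0 to 4 with each library left out (4 without lung library 1b, 20.2%). The block changed no other count of calls. The adjusted p of Psmb9 ran from 0.00242 to 0.805 in WT blood and from 0.000541 to 0.332 in WT lung, and its direction held in both.

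Over all members and comparisons, 86 of 150 log2 fold changes had alternatives on both sides of 0. For 20 of them, chosen among the members described most fully, 11 of 312 alternatives changed direction. In WT lung H2-K1 was 0.048 with all 8 groups, 0.14 with libraries 1a and 2 alone and -0.71 to 0.31 with each library left out, and H2-D1 was 0.055 with all 8 groups and -0.45 to 0.26 with each library left out. In αD KO lung, without the 3 libraries against their labels, Psmb8 was -0.97 and Psmb9 -1.32, and Psmb8 was -0.0062 to 0.79 with each library left out. The cause was not tested. In 6 of 12 comparisons the library numbers are only numbers. With 3 libraries a group, log2 fold changes of over 1 went uncalled.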
